A study of Mus musculus with 6 samples.

Results

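The genes described are the enzymes that cut or crosslink the extracellular matrix and the inhibitors of that cutting. They were chosen by symbol alone from the table of gene counts and comprise 51 of its 20914 genes. Of these, 20 are matrix metalloproteinases (Mmp), 4 are tissue inhibitors of metalloproteinases (Timp), 17 are Adamts proteases, 5 are Adamts-like genes (Adamtsl) and 5 are lysyl oxidases (Lox). RNA-seq was done on mouse liver in 6 libraries. The 3 DOX libraries carry the group label S10D-BDL-CKI-Alb-Cre-DOX, and the 3 PBS libraries S10D-BDL-CKI-Alb-Cre-PBS. Both groups share the genotype label BucheKI/KI-Hep and the treatment label BDL, so the comparison is DOX against PBS within livers that all carry the knock-in and all had BDL. BDL commonly abbreviates bile duct ligation, a surgical block of bile flow that scars the liver around the ducts, while the labels explain neither it nor S10D, CKI or DOX. Alb-Cre places Cre recombinase under the albumin promoter, which is active in hepatocytes, whereas most of the genes described here are classically made by other liver cells. Age is not given in the labels, nor is it stated that the libraries of a group came from separate animals, so the spread behind each p-value may hold technical variation only. The series' design describes overexpression of butyrylcholinesterase in hepatocytes.

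Scarring of the liver is a balance of matrix made, matrix cut and matrix crosslinked. Metalloproteinases are zinc enzymes, secreted or anchored in the cell membrane, that together cut collagens, gelatin, elastin and basement membrane. Timp proteins bind their active sites, Adamts enzymes trim procollagens and cut proteoglycans, Adamts-like proteins resemble them without a protease domain, and lysyl oxidases link collagen and elastin chains so that the fibres resist cutting. In injured liver, activated stellate cells and portal fibroblasts are the textbook source of Timp1, Mmp2 and lysyl oxidases, macrophages of Mmp12, neutrophils of Mmp8 and Mmp9, and duct epithelium of Mmp7.

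Total gene counts ranged from 32826493 to 41102844 per library. Values across libraries are CPM, counts scaled to a common library size by the TMM method, and levels of different genes are compared only as the deposited FPKM, which divide by gene length. Bche, which encodes butyrylcholinesterase, stood at 968.8, 447.3 and 594.8 CPM in DOX replicates 1 to 3, against 192.7, 244.8 and 194.1 CPM in PBS replicates 1 to 3 (log2 fold change 1.67, SE 0.27, adjusted p = 0.106 with edgeR). The 12 hepatocyte markers were all detected in every library and summed to 98672 to 156707 CPM in DOX and 82145 to 94958 CPM in PBS. Most of this sum was Alb, with 105009, 60610 and 113461 CPM in DOX, against 45604, 57710 and 52301 CPM in PBS. Of the 12 markers 8 had a positive log2 fold change (median 0.15), and 0 had an edgeR adjusted p under 0.05. Libraries stood apart within each group: DOX replicate 3 had the lowest sum of 12 stellate cell and fibroblast markers, 216.4 CPM, where DOX replicates 1 and 2 had 529.0 and 453.9 CPM, and PBS replicate 2, at 222.6 CPM, lay below PBS replicates 1 and 3, at 354.4 and 443.1 CPM. In bulk tissue, fewer cells of a type and less RNA per cell cannot be told apart.

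No member differed between DOX and PBS at an adjusted p of 0.05. Of the 51 members, 40 had enough counts to be tested, and 0 of 40 passed with edgeR's quasi-likelihood test adjusted over all 13725 tested genes, against 0.0291% of all tested genes (4 genes). DESeq2 called 0 of the 42 members to which it gave an adjusted p, against 1.19% of all genes. At an unadjusted p under 0.05, edgeR gave 3 members, or 7.5%, against 9.9% of all tested genes. These were Mmp11, Adamtsl4 and Mmp7, all lower in DOX, where 4.87% of all tested genes were lower at that threshold. Of the members 0 were higher, against 5.03% of all tested genes. The 3 DOX libraries did not overlap the 3 PBS libraries for 2 of 40 members, or 5%, against 16.8% of all tested genes. Both of those lay below PBS, where 9.01% of all tested genes lay, and 0 lay above, against 7.84% of all tested genes. The share of members lower at an unadjusted p under 0.05 was thus above that of all genes, on 3 genes. Of these, Mmp11 passed the filter on low counts by its PBS libraries alone. The other shares were below those of all genes. The median log2 fold change (DOX over PBS) was 0.04 over the 40 members and -0.02 over all tested genes, with 22 members positive and 18 negative. By class the medians were -0.12 for 15 tested Mmp genes, 0.09 for 4 Timp, -0.01 for 12 Adamts, -0.0037 for 4 Adamtsl and 0.04 for 5 Lox genes.

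**Figure D1:**
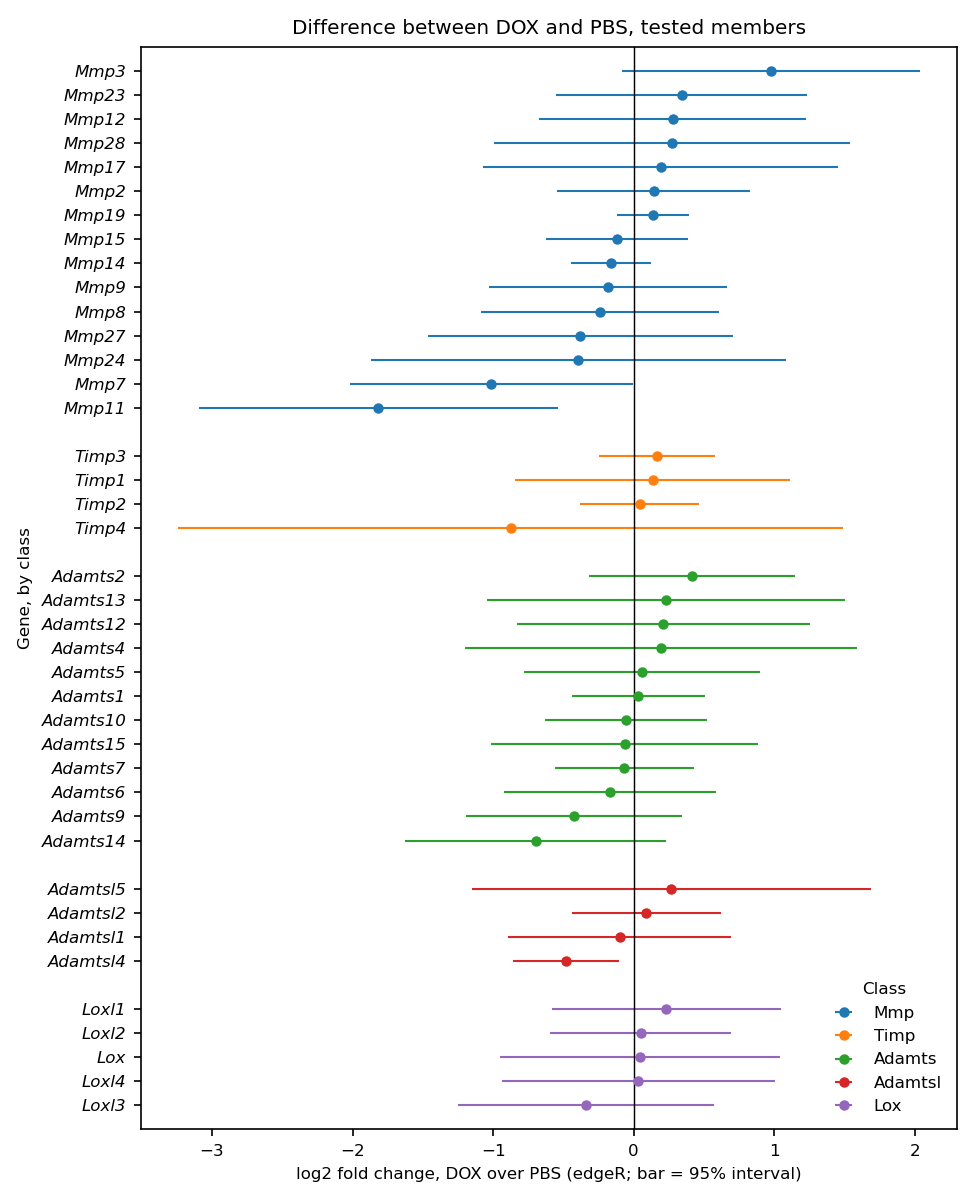
Log2 fold change of the 40 tested members, DOX over PBS, on the horizontal axis, with genes grouped by class down the page. Points are edgeR estimates and bars their 95% intervals, which span 0 for all members but Mmp11, Adamtsl4 and Mmp7.

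The precision behind these values was limited. The median standard error of a member's log2 fold change was 0.38, against 0.16 over all tested genes. The narrowest intervals were those of Mmp19 and Mmp14. For Mmp19 the 95% interval of the ratio was 0.92 to 1.31-fold, and for Mmp14 it was 0.735 to 1.09-fold. For Timp3 the interval was 0.84 to 1.49-fold, whereas for Timp4 it ran from 0.11 to 2.81-fold, so that a large change in either direction lies within it.

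The metalloproteinases were led by cell-bound and secreted enzymes of broad tissue distribution. Mmp14, the membrane-type enzyme that activates pro-Mmp2 and cuts fibrillar collagen (chromosome 14, 54431612 to 54445364 in GRCm38), had the highest mean level of all 51 members, 23.9 FPKM over the 6 libraries. It was followed by Mmp19, a secreted enzyme that cuts basement membrane proteins (chromosome 10, 128790910 to 128800824), at 18.0 FPKM, and Mmp15, a second membrane-type enzyme (chromosome 8, 95352268 to 95375080), at 15.5 FPKM. These 3 genes made up 77.6% of the summed FPKM of the 20 Mmp genes. The sum of all 20 separated the groups in one unit and not in the other. In the deposited FPKM it was 77.4, 68.0 and 55.0 in DOX, against 80.3, 81.5 and 81.8 in PBS, with every DOX library below every PBS library. In TMM-scaled CPM it was 287.0, 240.4 and 208.4 in DOX, against 266.9, 246.0 and 267.7 in PBS, and the groups overlapped. The FPKM differ from these CPM both in lacking TMM scaling and in dividing by gene length. Mmp14 stood at 100.5, 82.8 and 72.8 CPM in the DOX libraries, against 96.9, 91.5 and 97.4 CPM in the PBS libraries. DOX replicates 2 and 3 were below every PBS library and DOX replicate 1 above, so the groups overlapped (log2 fold change -0.16, SE 0.13, adjusted p = 0.702). Mmp19 stood at 60.9, 66.3 and 68.7 CPM in DOX, against 61.3, 51.0 and 65.8 CPM in PBS, where DOX replicates 2 and 3 were the highest (log2 fold change 0.14, SE 0.11, adjusted p = 0.715). Mmp15 had 86.2, 59.5 and 45.4 CPM in DOX, against 78.0, 57.6 and 72.1 CPM in PBS, where DOX held both the highest and the lowest library (log2 fold change -0.12, SE 0.22, and 0.08 without DOX replicate 3). Mmp19 shares 22.3% of its exonic bases with Tmem198b on the other strand, a gene with 86 to 145 counts per library against at least 1686 for Mmp19.

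**Figure D2:**
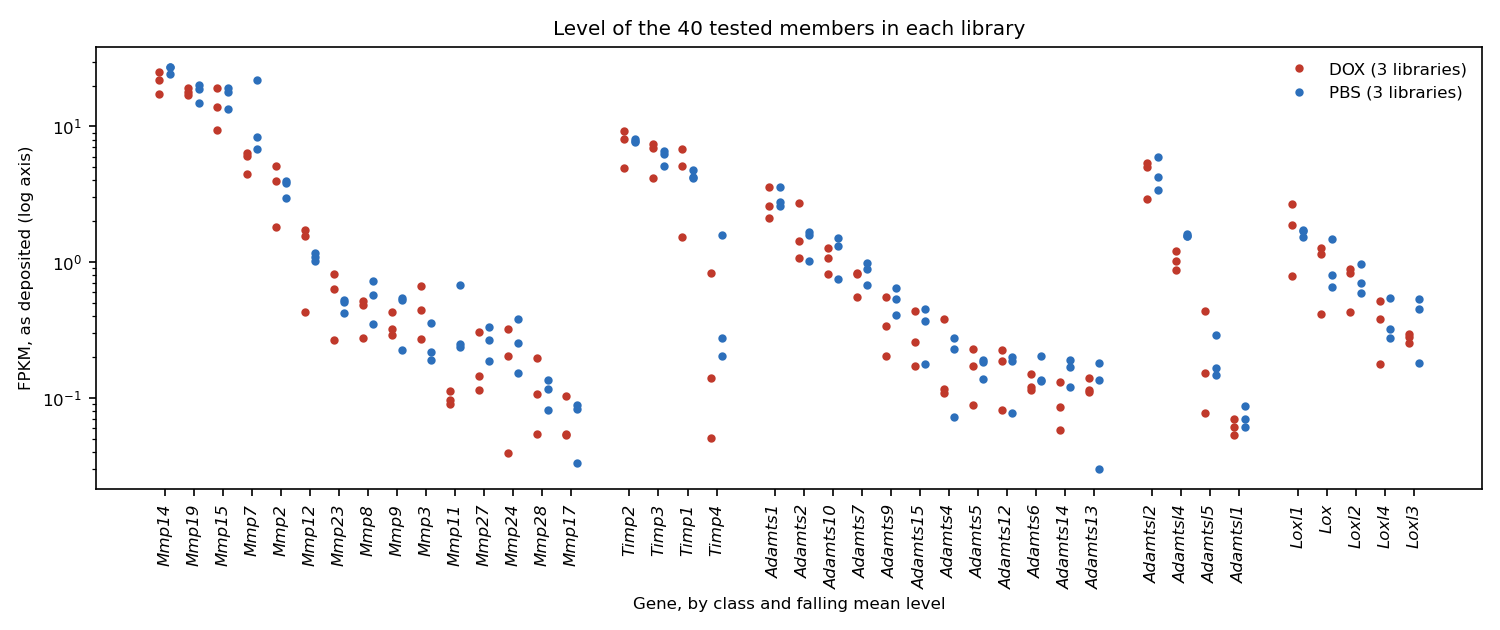
FPKM of the 40 tested members on a log axis, with a point for each of the 3 DOX libraries (left of each pair) and 3 PBS libraries (right of each pair). Mmp14, Mmp19 and Mmp15 are the highest, and most genes have overlapping groups.

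Among the members, 8 of the Mmp genes form a cluster on chromosome 9 between 7272514 and 7699585 in GRCm38, in the order Mmp13, Mmp12, Mmp3, Mmp10, Mmp8, Mmp27, Mmp20 and Mmp7. Genes of this cluster, a product of tandem duplication, include stromelysins, collagenases and matrilysin. Several are textbook targets of the transcription factor AP-1, a dimer of Fos and Jun proteins. Windows from 250 bases before to 50 bases after the start of a gene were at hand for 33 of the 51 members (RefSeq, GRCm38.p6). The AP-1 motif TGANTCA, which reads the same on both strands, was found in the windows of 6 members, and all 6 belong to the cluster. These were 6 of the 36 windows of members, or 16.7%, against 7.81% of all 32851 windows. Each of the 6 windows also held TATAAA, the letters of a classical core promoter element, searched on both strands and present in 13.6% of all windows. The sequences are shown because they are what these 6 neighbours share while their levels differ widely. Each runs on the plus strand from 100 bases before to 10 bases after the RefSeq start, with the AP-1 motif and TATAAA in capitals.
Mmp13 (chr9:7272414-7272523): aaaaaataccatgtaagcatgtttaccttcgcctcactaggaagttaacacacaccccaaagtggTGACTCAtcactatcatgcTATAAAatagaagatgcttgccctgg
Mmp12 (chr9:7347274-7347383): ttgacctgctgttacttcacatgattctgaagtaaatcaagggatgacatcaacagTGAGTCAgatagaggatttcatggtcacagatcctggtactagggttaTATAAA
Mmp3 (chr9:7445722-7445831): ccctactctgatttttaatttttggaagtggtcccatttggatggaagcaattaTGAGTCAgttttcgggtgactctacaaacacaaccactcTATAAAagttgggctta
Mmp10 (chr9:7502242-7502351): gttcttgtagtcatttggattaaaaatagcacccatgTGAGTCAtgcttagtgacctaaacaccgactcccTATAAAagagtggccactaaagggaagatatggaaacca
Mmp20 (chr9:7628131-7628240): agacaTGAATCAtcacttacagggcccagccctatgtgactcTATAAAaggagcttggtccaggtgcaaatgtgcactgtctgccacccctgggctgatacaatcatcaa
Mmp7 (chr9:7691990-7692099): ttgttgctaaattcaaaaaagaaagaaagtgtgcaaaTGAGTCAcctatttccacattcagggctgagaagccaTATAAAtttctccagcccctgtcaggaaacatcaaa
The AP-1 motif began 35 bases before the start for Mmp13, 44 for Mmp12, 46 for Mmp3, 63 for Mmp10, 95 for Mmp20 and 63 for Mmp7. TATAAA began 16 bases before the start for Mmp13, 7 for Mmp3, 29 for Mmp10 and 58 for Mmp20. Mmp7 had 2 matches, of which the first, 123 bases before the start, lies outside the stretch shown. For Mmp12 it lay after the start, and the Mmp12 stretch lies inside that gene's annotated span (7344381 to 7369499). Mmp12 and Mmp7 each have a second window in the table without the motif. A match of letters is a description of the sequence and says nothing of binding in these livers.

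The 6 genes that share the motif differed widely in level. Mmp7, or matrilysin, a small secreted protease of duct and other epithelia (chromosome 9, 7692090 to 7699585), averaged 9.04 FPKM over the 6 libraries, Mmp12 1.16 FPKM and Mmp3 0.358 FPKM. Mmp13 had 2 to 7 counts per library, Mmp20 2 counts in all and Mmp10 1 count in all.

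Mmp7 stood at 7.02, 4.96 and 7.93 CPM in the DOX libraries, against 7.18, 24.5 and 8.72 CPM in the PBS libraries. A single library, PBS replicate 2, was high, and the other 5 lay between 4.96 and 8.72 CPM, so the groups overlapped in CPM. In the deposited FPKM, which carry no TMM scaling, Mmp7 had 6.05, 4.47 and 6.42 in DOX, against 6.87, 22.1 and 8.35 in PBS, without overlap. The log2 fold change was -1.01 (SE 0.44, adjusted p = 0.50). Leaving out PBS replicate 2 gave -0.26 (adjusted p = 0.767). That library also had the highest summed level of 12 cholangiocyte markers, 443.3 CPM, where the other libraries had 149.1 to 284.5 CPM in DOX and 298.4 to 325.3 CPM in PBS. Of the 11 tested cholangiocyte markers 0 had a positive log2 fold change, and their median was -0.66. The part of duct cells in the Mmp7 value was not tested. In DOX replicate 3, whose cholangiocyte sum was the lowest, Mmp7 was not low.

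Mmp12, the macrophage elastase (chromosome 9, 7344381 to 7369499), had 6.72, 5.85 and 1.78 CPM in DOX, against 3.85, 3.84 and 4.14 CPM in PBS. The PBS libraries lay close together, and the DOX libraries lay on both sides of them (log2 fold change 0.28, SE 0.41, adjusted p = 0.852). Without DOX replicate 3 the adjusted p of Mmp12 was the smallest among the members, at 0.489. The 12 macrophage markers, all detected in every library, summed to 1117, 1027 and 859.2 CPM in DOX and to 990.6, 999.1 and 1009 CPM in PBS. Mmp3, or stromelysin, which cuts proteoglycans and activates other pro-enzymes, was the tested Mmp gene with the highest fold change. It had 1.25, 0.797 and 0.540 CPM in DOX, against 0.369, 0.635 and 0.321 CPM in PBS, or 20 to 47 counts in DOX and 12 to 21 in PBS. DOX replicate 3 lay below PBS replicate 2, so the groups overlapped, and the log2 fold change of 0.97 (SE 0.46) did not pass (adjusted p = 0.523).

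Mmp11, or stromelysin 3, an enzyme of fibroblasts around epithelia that is activated inside the cell (chromosome 10, 75923222 to 75936496), had the smallest p among the members. It had 10, 7 and 9 counts in the DOX libraries, against 23, 51 and 19 counts in the PBS libraries, which are 0.267, 0.207 and 0.243 CPM in DOX and 0.531, 1.54 and 0.508 CPM in PBS. Every DOX library was below every PBS library (log2 fold change -1.82, SE 0.56, adjusted p = 0.399), and without PBS replicate 2 the log2 fold change was -1.11 (adjusted p = 0.568). Mmp11 passed the filter on low counts, 0.270 CPM in at least 3 libraries, by its PBS libraries alone. With every DOX library under that level, the filter required every PBS library to lie above them. It was the only one of the 40 tested members to pass the filter through 1 group alone. Of its exonic bases, 5.58% lie opposite those of Chchd10, which had 12878 to 20614 counts per library, and the use of strand in counting is not given in the sources used here. Chchd10 stood at 343.6, 415.7 and 556.3 CPM in DOX, against 305.8, 433.3 and 395.5 CPM in PBS.

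**Figure D3:**
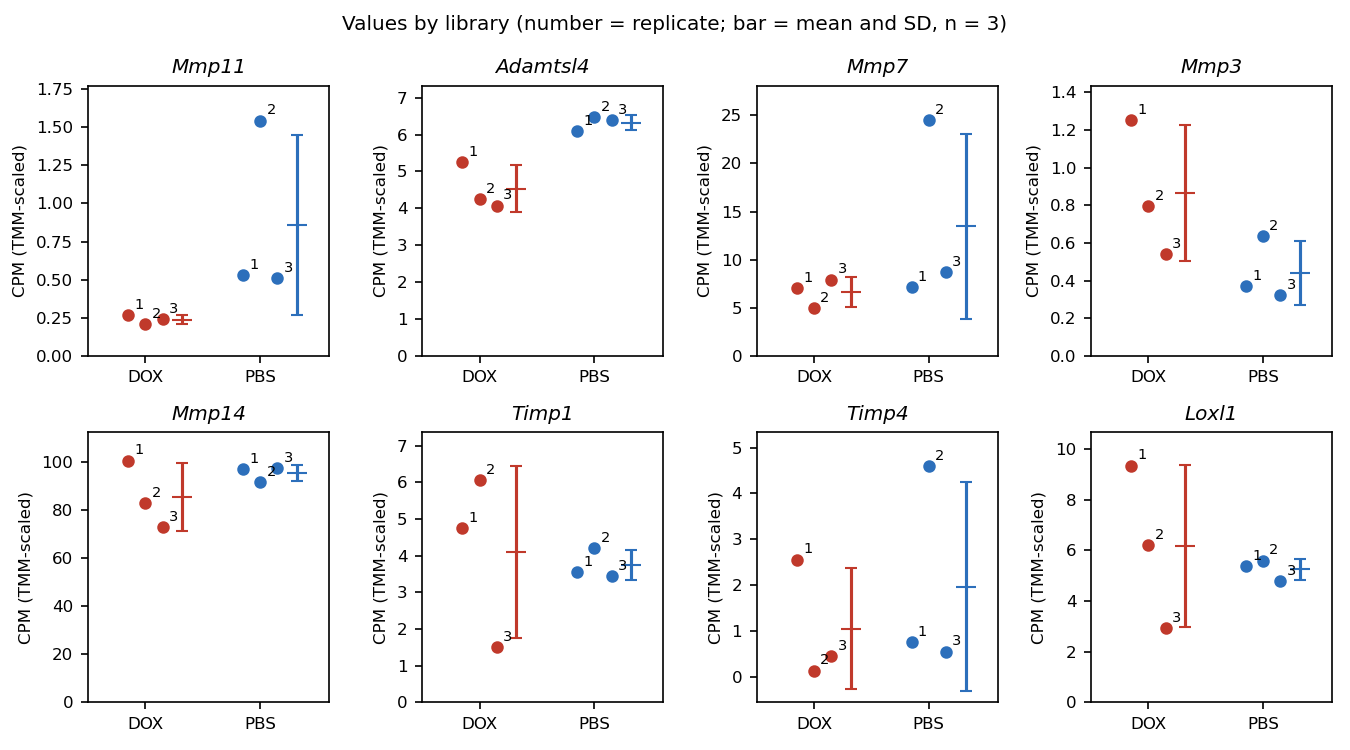
TMM-scaled CPM of 8 members in each library, with DOX left of PBS. Points carry their replicate number and bars give the mean and SD (n = 3). Mmp11 and Adamtsl4 do not overlap between the groups, PBS replicate 2 is the high point of Mmp11, Mmp7 and Timp4, and DOX replicate 3 is the low point of Timp1 and Loxl1.

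Mmp2, the gelatinase of stellate cells and fibroblasts that Mmp14 activates (chromosome 8, 92827291 to 92853420), had 17.1, 12.7 and 6.5 CPM in DOX, against 11.4, 9.47 and 12.0 CPM in PBS. DOX held the 2 highest libraries and the lowest (log2 fold change 0.14, SE 0.30, adjusted p = 0.904). The neutrophil collagenase Mmp8 and gelatinase Mmp9 were low, with means of 0.487 and 0.388 FPKM over the 6 libraries. Their log2 fold changes were -0.24 (SE 0.37) and -0.18 (SE 0.37), with adjusted p = 0.856 and 0.900. Of 12 neutrophil markers, Ly6g and Camp had 0 counts in at least 1 library, and the list summed to 26.1 to 34.3 CPM in DOX and 33.8 to 44.6 CPM in PBS, with 0 of 8 tested markers positive. The part of neutrophils in these values was not tested. The other tested Mmp genes, Mmp23, Mmp27, Mmp24, Mmp28 and Mmp17, averaged 0.0691 to 0.529 FPKM, with adjusted p-values from 0.799 to 0.932. Mmp24 shares 13.6% of its exonic bases with BC029722 on the other strand, which had 815 to 1084 counts per library against 7 to 54 for Mmp24.

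The inhibitors were led by Timp2 and Timp3, with means of 7.65 and 6.07 FPKM, followed by Timp1 at 4.44 FPKM and Timp4 at 0.513 FPKM. Timp2, which inhibits Mmp2 and also takes part in its activation by Mmp14 (chromosome 11, 118301069 to 118355740), had 35.0, 29.1 and 19.8 CPM in DOX, against 26.0, 29.2 and 26.4 CPM in PBS. Timp3, the inhibitor that binds to the matrix and also blocks Adamts and Adam enzymes (chromosome 10, 86300372 to 86349506), had 36.0, 32.3 and 21.6 CPM in DOX, against 27.4, 23.7 and 29.0 CPM in PBS. For both genes DOX replicate 3 was the lowest of all 6 libraries and DOX replicate 1 the highest. Their log2 fold changes were 0.04 (SE 0.18, adjusted p = 0.958) and 0.16 (SE 0.18, adjusted p = 0.788), and that of Timp2 was -0.14 without DOX replicate 1. Syn3, on the other strand, overlaps 21.3% of the exonic bases of Timp3 and had 17 to 70 counts per library, against 783 to 1350 for Timp3.

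Timp1, the inducible inhibitor of injured liver (chromosome X, 20870166 to 20874735), had 4.75, 6.05 and 1.51 CPM in DOX, against 3.55, 4.2 and 3.45 CPM in PBS. DOX replicates 1 and 2 were above all PBS libraries and DOX replicate 3 below them. The mean was 4.10 ± 2.34 CPM in DOX and 3.74 ± 0.409 CPM in PBS (SD, n = 3 each), and the log2 fold change was 0.13 (SE 0.43, adjusted p = 0.938). Without DOX replicate 3 it was 0.53 (adjusted p = 0.672), and without DOX replicate 2 it was -0.25 (adjusted p = 0.892). Timp4, an inhibitor best known from heart and fat, had 2.56, 0.148 and 0.459 CPM in DOX, against 0.761, 4.60 and 0.562 CPM in PBS. It was high in 1 library of each group, and its fold change was the least precise of the class (log2 -0.88, SE 1.03, adjusted p = 0.805). Leaving out PBS replicate 2 turned it to 0.68 (adjusted p = 0.874), and leaving out DOX replicate 1 gave -2.65 (adjusted p = 0.454).

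The ratio of inhibitors to metalloproteinases does not depend on scaling between libraries. The summed FPKM of the 4 Timp genes over that of the 20 Mmp genes was 0.293, 0.322 and 0.196 in the DOX libraries, against 0.230, 0.240 and 0.229 in the PBS libraries. DOX replicates 1 and 2 lay above the PBS libraries, which were close together, and DOX replicate 3 lay below them. For the 5 Lox genes over the 20 Mmp genes the same ratio was 0.0708, 0.0686 and 0.0382 in DOX, against 0.0480, 0.0550 and 0.0502 in PBS, where DOX replicates 1 and 2 again lay above the PBS libraries and DOX replicate 3 below them. Equal ratios of RNA would not show equal activity, since these enzymes are made as inactive precursors.

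**Figure D4:**
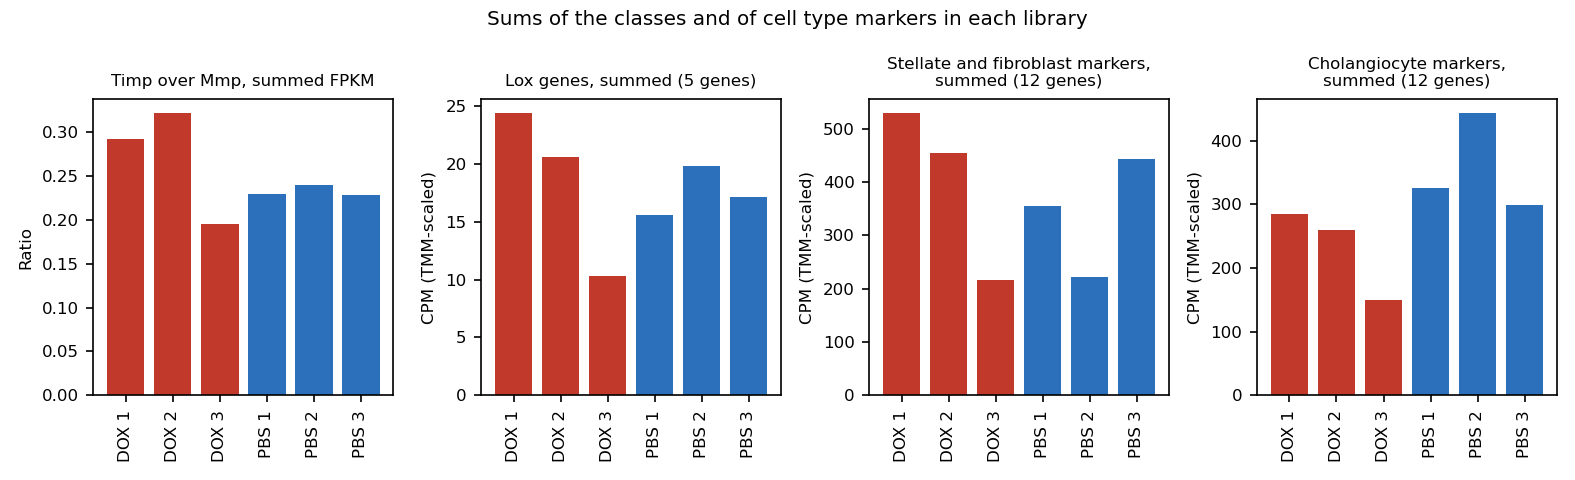
Per library, from left to right: the ratio of summed Timp to summed Mmp FPKM, the summed CPM of the 5 Lox genes, of 12 stellate cell and fibroblast markers and of 12 cholangiocyte markers, with DOX bars left of PBS bars. DOX replicate 3 is the lowest bar in each panel, and PBS replicate 2 has the highest cholangiocyte sum.

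Of the 17 Adamts genes, 12 were tested and 0 passed. Adamts1, which cuts versican and other proteoglycans (chromosome 16, 85793827 to 85803113), had the highest mean of the class, 2.88 FPKM, followed by Adamts2 at 1.59 and Adamts10 at 1.12 FPKM. Adamts1 stood at 18.3, 10.4 and 13.9 CPM in DOX, against 12.8, 12.6 and 16.3 CPM in PBS (log2 fold change 0.03, SE 0.21, adjusted p = 0.972). Adamts2, the procollagen N-proteinase that trims fibrillar procollagens before fibres form (chromosome 11, 50602084 to 50807573), had 20.6, 10.4 and 8.61 CPM in DOX, against 11.4, 7.41 and 10.9 CPM in PBS. Only DOX replicate 1 was above the PBS libraries, and the log2 fold change of 0.42 (SE 0.32) did not pass (adjusted p = 0.697) and was -0.05 without DOX replicate 1. Adamts14, a second procollagen N-proteinase, had the smallest p of the class. It had 0.480, 0.709 and 0.351 CPM in DOX, against 0.969, 0.907 and 0.615 CPM in PBS, with DOX replicate 2 above PBS replicate 3 (log2 fold change -0.70, SE 0.41, adjusted p = 0.596). Adamts10, a protease tied to fibrillin microfibrils, had 5.98, 6.76 and 4.83 CPM in DOX, against 6.58, 3.99 and 7.59 CPM in PBS (adjusted p = 0.963). Adamts9, a versican-cutting protease, had 3.17, 4.96 and 2.02 CPM in DOX, against 4.48, 5.72 and 3.45 CPM in PBS (log2 fold change -0.43, SE 0.34, adjusted p = 0.704). Adamts4 and Adamts5, the aggrecanases, averaged 0.197 and 0.166 FPKM, and Adamts13, the protease of von Willebrand factor that stellate cells make in healthy liver, 0.118 FPKM. Their log2 fold changes were 0.19, 0.06 and 0.23, with adjusted p = 0.938, 0.970 and 0.917.

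Of the 5 Adamts-like genes, 4 were tested and 0 passed. Adamtsl2, a fibrillin-binding protein of the microfibril (chromosome 2, 27079379 to 27108981), was the most abundant at 4.49 FPKM, 73.7% of the class sum. It had 20.1, 20.6 and 12.5 CPM in DOX, against 15.4, 13.1 and 21.5 CPM in PBS (log2 fold change 0.09, SE 0.23, adjusted p = 0.921). Adamtsl4, another fibrillin-associated protein (chromosome 3, 95676201 to 95687917), was the member other than Mmp11 whose groups did not overlap. It had 5.26, 4.25 and 4.08 CPM in DOX, against 6.09, 6.47 and 6.39 CPM in PBS, from 144 to 197 counts in DOX and 214 to 264 in PBS. Every DOX library was below every PBS library, and within PBS the values differed little. The mean was 4.53 ± 0.637 CPM in DOX and 6.32 ± 0.201 CPM in PBS (SD, n = 3 each). The ratio was 0.717-fold with a 95% interval of 0.552 to 0.932-fold, which did not pass over all genes (adjusted p = 0.429 with edgeR and 0.326 with DESeq2). Adamtsl5 had 1.41, 0.472 and 0.270 CPM in DOX, against 0.485, 0.454 and 0.856 CPM in PBS (log2 fold change 0.27, SE 0.62, adjusted p = 0.912). DOX replicate 1 alone was high, and leaving it out turned the log2 fold change to -0.68 (adjusted p = 0.701). Adamtsl1 had log2 fold change -0.10 (SE 0.35, adjusted p = 0.947).

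The 5 lysyl oxidase genes were all tested and 0 passed. Loxl1, which is best known for elastic fibres (chromosome 9, 58287738 to 58313186), had the highest mean, 1.71 FPKM, followed by Lox, the enzyme that crosslinks fibrillar collagen, at 0.962 FPKM and Loxl2, an enzyme of collagen and basement membrane in fibrotic liver, at 0.735 FPKM. Loxl1 had 9.34, 6.20 and 2.94 CPM in DOX, against 5.38, 5.60 and 4.79 CPM in PBS (log2 fold change 0.23, SE 0.36, adjusted p = 0.855), and leaving out DOX replicate 1 turned it to -0.20. Lox had 5.68, 6.08 and 2.21 CPM in DOX, against 2.93, 7.08 and 3.61 CPM in PBS (log2 fold change 0.04, SE 0.44, adjusted p = 0.985). Loxl2 had 5.07, 5.17 and 2.81 CPM in DOX, against 3.88, 3.42 and 5.29 CPM in PBS (log2 fold change 0.05, SE 0.28, adjusted p = 0.968). For these 3 genes, and for Loxl4, DOX replicate 3 was the lowest of the 6 libraries. Loxl4 had 3.04, 2.13 and 1.11 CPM in DOX, against 1.68, 3.02 and 1.44 CPM in PBS (adjusted p = 0.986). Loxl3 was the exception in direction, with 1.25, 1.03 and 1.27 CPM in DOX, against 1.73, 0.726 and 2.03 CPM in PBS (log2 fold change -0.34, SE 0.40, adjusted p = 0.804). Of the exonic bases of Loxl3, 11.6% lie opposite those of Htra2, which had 301 to 436 counts per library against 24 to 76 for Loxl3. The direction of the class depended on the library left out: without DOX replicate 3 the median log2 fold change of the Lox genes was 0.34, and without DOX replicate 1 it was -0.20.

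Members did not vary independently of the library. DOX replicate 3 was the lowest of the 6 libraries for 21 of the 40 tested members, or 52.5%, against 25.6% of all tested genes. DOX replicate 1 was the highest for 17 members, or 42.5%, against 17.7% of all tested genes, and the lowest for 0 members, against 16.5% of all genes. The median deviation of the members from their own mean was 0.27 in DOX replicate 1 and -0.39 in DOX replicate 3 on the log2 scale, against 0.00 and -0.02 over all tested genes. Lox genes deviated most in DOX replicate 3 (median -0.62), then Timp (median -0.56). PBS replicate 2 had the lowest value for 6 of the 12 tested Adamts genes (Adamts2, Adamts4, Adamts10, Adamts12, Adamts13 and Adamts15), yet the highest for Mmp7, Mmp11, Mmp24, Timp4, Lox, Adamts6, Adamts9 and Adamtsl4. The spread on the log2 scale was larger among the DOX than the PBS libraries for 28 of 40 members, or 70%, against 53.0% of all tested genes. The stellate cell and fibroblast markers, of which all 12 were detected in every library and had a positive log2 fold change (median 0.36, 0 called), summed to 529.0, 453.9 and 216.4 CPM in DOX, against 354.4, 222.6 and 443.1 CPM in PBS, and Col1a1, a chain of type I collagen, stood at 93.9, 78.1 and 22.5 CPM in DOX, against 51.8, 37.6 and 52.8 CPM in PBS. DOX replicate 3 was thus low in these markers as well as in the members. Liver endothelial markers, another 12 genes, summed to 309.9, 177.9 and 280.8 CPM in DOX, against 210.2, 101.6 and 209.3 CPM in PBS, and were not low in DOX replicate 3 (11 of 12 positive, 0 called). Smooth muscle markers summed to 49.5 to 61.7 CPM in DOX and 48.1 to 55.1 CPM in PBS, with Myocd at 0 in at least 1 library. The part of cell composition in the values of the members was not tested. Without DOX replicate 3, 25 of the 40 members had a positive log2 fold change, and without DOX replicate 1, 7 did, and 0 passed in either case.

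**Figure D5:**
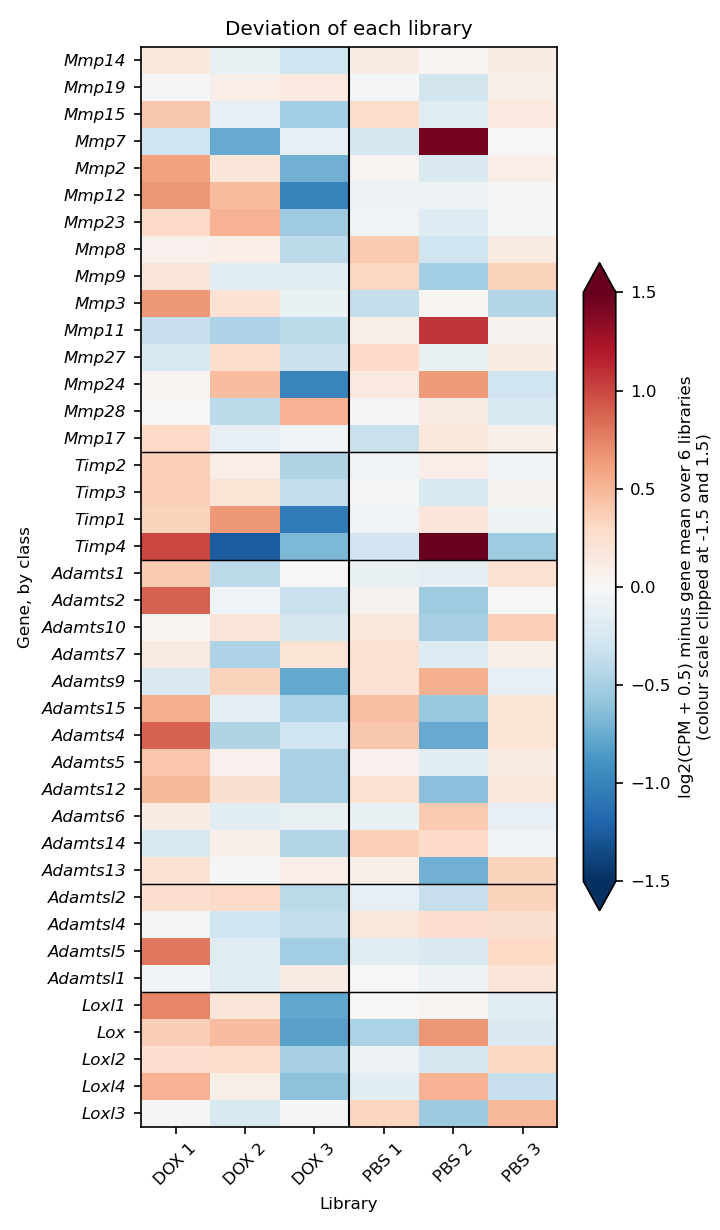
Deviation of each library from the gene's mean over the 6 libraries, as log2(CPM + 0.5), for the 40 tested members, with DOX libraries left of the PBS libraries and genes grouped by class. The column of DOX replicate 3 is mostly blue (lower), that of DOX replicate 1 mostly red (higher), and PBS replicate 2 stands out in Mmp7, Mmp11 and Timp4.

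The remaining 11 members were below the filter on low counts, with at most 13 counts in any library. They were Mmp10, Mmp13, Mmp16, Mmp20 and Mmp25, Adamts3, Adamts8, Adamts16, Adamts17 and Adamts20, and Adamtsl3. Adamts3 and Adamtsl3 had the most counts, 3 to 13 and 3 to 12 per library. A count of 0 in a library allows up to 3 counts, or 0.073 to 0.0914 CPM at these depths, counting error only. The groups of all 11 overlapped (exact two-sided permutation p = 0.2 to 1). With 3 against 3 libraries that test allows no p below 0.1, so it could not pass 0.05 at any depth. DESeq2 gave an adjusted p to Adamts3 (0.790) and Adamtsl3 (0.935) and to no other of the 11.

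Genes that work beside the members were described in 7 lists, and 0 of their 85 tested genes passed over all genes with edgeR. The DOX and PBS libraries did not overlap for 16.8% of all tested genes. By list this held for 3 of 11 plasminogen system genes, 2 of 18 of matrix protease control and 2 of 10 other inhibitors. It held for 3 of 13 cathepsins and cystatins, 1 of 11 Adam sheddases, 4 of 19 crosslinking enzymes and 0 of 3 procollagen proteases. Genes named below were picked mostly by small p, so their separation does not describe the lists. In the plasminogen system, which feeds metalloproteinase activation through plasmin, 6 of 11 tested genes had a positive log2 fold change (median 0.01). Hgfac, the activator of hepatocyte growth factor, had 179.7, 147.6 and 165.4 CPM in DOX, against 128.2, 119.1 and 117.1 CPM in PBS, with every DOX library above every PBS library, and passed with DESeq2 alone (adjusted p = 0.0232, and 0.291 with edgeR). In the list of matrix protease control, 6 of 18 genes were positive (median -0.12). Fos, a subunit of AP-1, had 5.18, 4.49 and 3.75 CPM in DOX, against 10.01, 8.56 and 7.03 CPM in PBS, with no overlap (log2 fold change -0.93, SE 0.19, adjusted p = 0.0044 with DESeq2 and 0.216 with edgeR). Tgfb2, a growth factor of fibrosis, had 5.44, 6.02 and 2.51 CPM in DOX, against 7.82, 13.1 and 6.55 CPM in PBS, with no overlap, and passed with neither tool (adjusted p = 0.457 with edgeR).

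Other inhibitors had 3 of 10 positive (median -0.22), led by Tfpi2, a serine protease inhibitor of the matrix, with 32.3, 35.0 and 41.2 CPM in DOX, against 23.8, 22.0 and 31.7 CPM in PBS (adjusted p = 0.400). Spint2, an inhibitor of membrane serine proteases, had 108.2, 103.1 and 98.0 CPM in DOX, against 118.6, 121.5 and 120.7 CPM in PBS (adjusted p = 0.477). Neither gene overlapped between the groups, and neither passed. Cathepsins and cystatins, the lysosomal proteases and their inhibitors, had 8 of 13 positive (median 0.01). Ctsz had 273.7, 258.6 and 264.8 CPM in DOX, against 206.6, 207.0 and 235.2 CPM in PBS, and Ctsl 1090, 1195 and 1234 CPM in DOX, against 1353, 1666 and 1392 CPM in PBS, in opposite directions and without passing (adjusted p = 0.433 and 0.50). The Adam sheddases had 6 of 11 positive (median 0.07, smallest adjusted p = 0.631). Collagen hydroxylases and other crosslinking enzymes had 8 of 19 positive (median -0.02, smallest adjusted p = 0.505). Colgalt2, a collagen galactosyltransferase, had the smallest p, with 0.107, 0.118 and 0.189 CPM in DOX, against 0.254, 0.363 and 0.294 CPM in PBS (log2 fold change -1.11, SE 0.50). Its DOX libraries were all below the filter's 0.270 CPM, which applies before TMM scaling, so it was tested through its PBS libraries alone. P4ha2, a catalytic subunit of prolyl 4-hydroxylase, had 5.58, 5.46 and 5.69 CPM in DOX, against 6.53, 6.2 and 8.69 CPM in PBS, below PBS in every DOX library (adjusted p = 0.526). P4hb, the other subunit of that enzyme and a folding enzyme in its own right, had 2045, 1838 and 1752 CPM in DOX, against 1530, 1547 and 1578 CPM in PBS, above PBS in every DOX library without passing (adjusted p = 0.523). The procollagen proteases and their enhancers had 2 of 3 positive (median 0.03, smallest adjusted p = 0.818).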

How the data were processed

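Counts per gene and FPKM for 6 libraries of mouse liver RNA (3 DOX, 3 PBS) were used. The authors deposited whole-number counts and FPKM. The deposited FPKM were checked to be counts divided by a gene's fixed length and by the library's sum in 18913 of 18913 genes counted in at least 2 libraries (relative tolerance 1e-05). Libraries were made with a SMARTER mRNA kit, per the labels' protocols, and the builds GRCm38 and mm10 are named in the submitters' processing notes. For aligner, counter and strand the setting is not given in the sources used here. How reads in overlapping genes were counted could therefore change single values.

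DOX was tested against PBS with edgeR 4.0.16 (R 4.3.3) by the quasi-likelihood test with filterByExpr, TMM scaling and no block, and p-values were adjusted over 13725 genes (Benjamini-Hochberg, threshold 0.05). The procedure was tested on simulated data. Standard errors come from the F statistic, and CPM use TMM-scaled library sizes. Members under the filter had exact two-sided permutation tests. Chi-square between replicates, per degree of freedom, was 41.9 to 132.2, above sampling noise. Alternatives were RLE scaling, library size only, DESeq2 1.42.0, limma 3.58.1 (voom, and log2 of FPKM plus 1 or 0.1), no filter, 1 CPM in 3 libraries, the replicate block, leaving out each library and, chosen after seeing the data, leaving out DOX replicate 3 and PBS replicate 2 together. Coordinates are from GENCODE M21 (GRCm38), in which all 51 members matched once.

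Members and lists were chosen with earlier results of these data known. Genes named with a value in every library were the 3 of highest mean FPKM and the 3 of smallest p in each class, all Timp and Lox genes, and, from each other list, up to 2 of smallest p. Some results under this rule are not reported here. Mmp12, Mmp2, P4ha2 and overlapping genes were added after their values were seen. Of 94 listed pathway genes, 90 were in the table.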

Additional observations from a re-analysis of the deposited data

How the results depend on the processing

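Of the 51 members, 0 passed in any of the 17 alternatives, and 1 to 7 had an unadjusted p under 0.05. The number of genes changed, 4 in the main setting, was 176 with DESeq2, 61 without the filter, 2 with limma-voom and 21 with the replicate block. Why they differ was not tested. Of the 23 members chosen by rule, 8 kept their direction in all alternatives run (Mmp3, Mmp7, Mmp11, Mmp14, Timp3, Adamts14, Adamtsl4 and Loxl3), and 15 changed sign in at least 1. Adamtsl4 had an adjusted p of 0.280 to 0.736 over its alternatives, Mmp11 of 0.172 to 0.673 and Mmp7 of 0.302 to 0.767. Scaled by library size only, 14 of 40 members were positive and their median was -0.08, where the median of all genes was -0.15. Without both DOX replicate 3 and PBS replicate 2, a pair chosen after seeing the data, the Lox and Timp medians were 0.61 and 0.46. DOX replicate 3 was the lowest library for 4 of 5 Lox and 3 of 4 Timp genes. Leaving it out therefore raises these medians by construction.

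With the replicate block 0 members passed (smallest adjusted p = 0.348), against 4 and 21 genes changed over all genes without and with it. The labels state no pairing, so the main test used no block. Deviations of same-numbered libraries correlated at 0.225, 0.161 and 0.0193, against -0.214 to 0.0661 for libraries of unlike number. In replicates 1 and 2 the same-numbered library correlated best. PBS replicate 3 correlated best with DOX replicate 1, and DOX replicate 3 with PBS replicate 2. These values do not settle whether the numbers mark pairs. Depth limited the members with few counts.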
